A study of Mus musculus with 12 samples.

Results

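The genes described here encode the subunits of the phagocyte NADPH oxidase, Cybb, Cyba, Ncf1, Ncf4, Rac1 and Rac2, and the catalytic subunit of the renal oxidase, Nox4. They were found by gene symbol in 2 tables of RNA-seq counts, 1 of renal tubular epithelial cells (TECs) and 1 of blood neutrophils (PMN). Of the 7 genes, 6 had a row in each table, out of 50433 rows in TECs and 50434 in PMN. Neither table had a row for any of 966 X-linked protein-coding symbols looked up in RefSeq, and Cybb, which lies on the X chromosome, was not analysed here.

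All libraries came from wildtype mice 24 hours after renal ischemia-reperfusion injury (IRI), which was produced by clamping the vessels of the kidney for a time. The study's methods name male C57BL/6J mice of 8 to 12 weeks. After reperfusion mice received glutamine or vehicle (saline), at a time on which the sources differ, giving 4 groups of 3 libraries, which were TECs with vehicle, TECs with glutamine, PMN with vehicle and PMN with glutamine. No library of either table came from a mouse without IRI, so the comparisons are between treatments after injury. TECs were sorted from kidney as CD45- and Prominin-1+, and PMN came from peripheral blood. The study describes the TEC groups as groups of mice. The labels tie no library to a single mouse in either cell type, so p-values measure the spread between these libraries, and for PMN it is not given whether that spread is between mice or technical. In these bulk samples, fewer cells of a type and less RNA per cell cannot be told apart.

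NADPH oxidases move electrons from NADPH across a membrane onto oxygen and release superoxide or hydrogen peroxide. In the phagocyte enzyme the membrane pair CYBB (gp91phox) and CYBA (p22phox) is silent until cytosolic proteins, NCF1 (p47phox) and NCF4 (p40phox) among them, and a GTP-bound RAC protein join it, which gives neutrophils their respiratory burst. NOX4, abundant in kidney and first described there, also pairs with CYBA, but it is active without the cytosolic proteins or RAC and is regarded as being set largely by how much of it is made.

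The 2 RAC genes are close relatives whose RNA differs between the cell types below, and their coding sequences are shown because reads of 50 bases must tell them apart. Rac1 is expressed in most cells and Rac2 mainly in blood cells, and both encode small GTPases. In GENCODE M21 their coding sequences are each 579 bases long and differ at 133 bases, so that 77.0% of bases are identical, while the encoded proteins of 192 residues differ at 16 residues and are 91.7% identical. The longest identical stretch was 29 bases, and no 31-base word of 1 coding sequence was found in the other. The last 90 coding bases, positions 490 to 579 with the stop codon, encode the tail by which RAC proteins reach membranes. They differ at 36 positions, shown in capitals, and are given 5′ to 3′.
Rac1 last 90 bases: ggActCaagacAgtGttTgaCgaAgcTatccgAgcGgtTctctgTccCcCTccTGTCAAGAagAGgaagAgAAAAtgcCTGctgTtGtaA
Rac2 last 90 bases: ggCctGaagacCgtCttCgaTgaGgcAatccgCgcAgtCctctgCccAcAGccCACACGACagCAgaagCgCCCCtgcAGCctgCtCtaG

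The genes lie apart on GRCm38 (mm10), the build named in the submitters' processing notes. Cyba is at chr8:122424776-122432930 on the minus strand, Ncf1 at chr5:134220053-134229625 on the minus strand and Ncf4 at chr15:78244801-78262580 on the plus strand. Rac1 is at chr5:143503634-143528036 and Rac2 at chr15:78559167-78572783, both on the minus strand, and Nox4 is at chr7:87246096-87398710 on the plus strand. Values are counts over all exons of a gene. Of the 31-base words of Rac1 transcripts, 50.7% also occur on the opposite strand in another gene's transcripts, mainly in Daglb, whose end overlaps that of Rac1. Whether counting used strand is not given in the sources used here, and without strand reads of Rac1 and Daglb over that overlap cannot be told apart. For Ncf1 this share was 9.73%, mainly in Gtf2ird2, and for the other measured members it was at most 7.11%. RefSeq windows from 250 bases before to 50 bases after the start were given for 3 measured members, Cyba, Ncf1 and Nox4. The myeloid ETS-type motif GAGGAA and the antioxidant response motif TGACNNNGC, searched on both strands, were found in 0 of these 3 windows. Among 32851 such windows of all genes, 28.3% held GAGGAA and 12.4% held TGACNNNGC.

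Library totals were 5397445 to 10223546 counts in TECs, with glutamine replicate 2 the lowest, and 20225151 to 21878357 counts in PMN. Levels are given as CPM, the count of a gene scaled to a common library size, after TMM scaling within each table. The TEC libraries carried the sort marker Prom1 at 64.6 to 83.5 CPM and Ptprc, which encodes CD45, at 0.102 to 2.74 CPM. They also held red-cell RNA, with Hba-a2 at 462 to 3772 CPM, and endothelial RNA, with Pecam1 at 68.6 to 115 CPM and Cdh5 at 42.3 to 121.9 CPM. The 9 endothelial and stromal genes summed to 222.3 to 343.5 CPM in TECs. Of the leukocyte lists, the 11 neutrophil genes summed to 102 to 256 CPM in TECs, with S100a8 at 6.83 to 107 CPM and Cxcr2 at 37.9 to 88.0 CPM. The 12 macrophage and dendritic cell genes summed to 45.3 to 147 CPM in TECs. The PMN libraries carried the neutrophil genes S100a8 at 6607 to 28925 CPM, Csf3r at 577 to 1790 CPM and Cxcr2 at 465 to 1126 CPM. They were not free of other cells' RNA. The 12 macrophage and dendritic cell genes summed to 12022 to 26866 CPM in PMN, with Cd74 at 4154 to 10743 CPM, so that the values labelled PMN are those of a population rich in, but not limited to, neutrophil RNA. The tubular gene Umod reached 1025 CPM in PMN vehicle replicate 1, and the endothelial gene Kdr reached 619 CPM in PMN vehicle replicate 2.

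The first question was which subunits each cell type carried. Both cell types had Cyba and Rac1. PMN had Ncf1, Ncf4 and Rac2 at 316 to 1047 CPM in every library, and TECs had almost none of Ncf1 and Ncf4. Nox4 showed the opposite pattern. TEC and PMN libraries were counted in separate tables, and cell type and table cannot be told apart, so these levels stand side by side with no test.

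Cyba, the shared membrane partner, averaged 408 ± 69.2 CPM in TECs and 1127 ± 238 CPM in PMN (SD, n = 6 libraries each), a TEC level that was 36.2% of the PMN level. The lowest PMN library, at 950.3 CPM, was above the highest TEC library, at 488 CPM. Cyba was therefore lower in TECs by less than any other measured phagocyte subunit except Rac1.

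Ncf1, the organizer that brings the cytosolic complex to the membrane, had 335 to 1047 CPM in PMN. In TECs it had 15 counts over the 6 libraries together and was at 0 in 3 of them. That is 0.280 CPM, with an exact Poisson 95% interval of 0.157 to 0.462 CPM that covers counting error only. Ncf4, the subunit that binds phosphoinositides on phagosomes, had 316 to 483 CPM in PMN and 11 counts over the 6 TEC libraries, or 0.205 CPM (exact Poisson 95% interval 0.103 to 0.368). The TEC levels were 0.0398% of the PMN level for Ncf1 and 0.0519% for Ncf4. A count of 3 in a single TEC library corresponds to 0.269 to 0.603 CPM, so that most single TEC values of both genes lie at or under that floor and say little about any 1 library.

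Rac2 averaged 545 ± 213 CPM in PMN and 8.41 ± 3.45 CPM in TECs (SD, n = 6 libraries each), so that the TEC level was 1.54% of the PMN level. Rac1 averaged 365 ± 191 CPM in PMN and 196 ± 30.2 CPM in TECs, which is 53.7%, and the ranges overlapped because 1 PMN library was at 45.8 CPM. Nox4 averaged 75.5 ± 25.5 CPM in TECs and 3.11 ± 2.27 CPM in PMN, 24.3-fold higher in TECs. Every TEC library, from 45.9 to 117 CPM, was above every PMN library, from 0.964 to 7.39 CPM. The PMN library with the most Nox4 was vehicle replicate 2, which also had the highest sum of the 9 endothelial and stromal genes, 1474 CPM against 14.4 to 86.0 CPM in the others, and the highest sum of the 8 proximal tubule genes, 89.1 CPM against 20.1 to 62.2 CPM. Its sum of the 5 tubular epithelium genes, 2.33 CPM, was the lowest of the PMN libraries. Its sum of the 4 thick ascending limb and distal tubule genes was 10.7 CPM. Both of these sums were highest in vehicle replicate 1, at 166 and 1219 CPM, and that library had the least Nox4, 0.964 CPM. The part of any of these cells in the Nox4 value of vehicle replicate 2 was not tested. In TECs the 9 endothelial and stromal genes summed to 222.3 to 343.5 CPM, and their part in the TEC Nox4 level was not tested either.

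**Figure D1:**
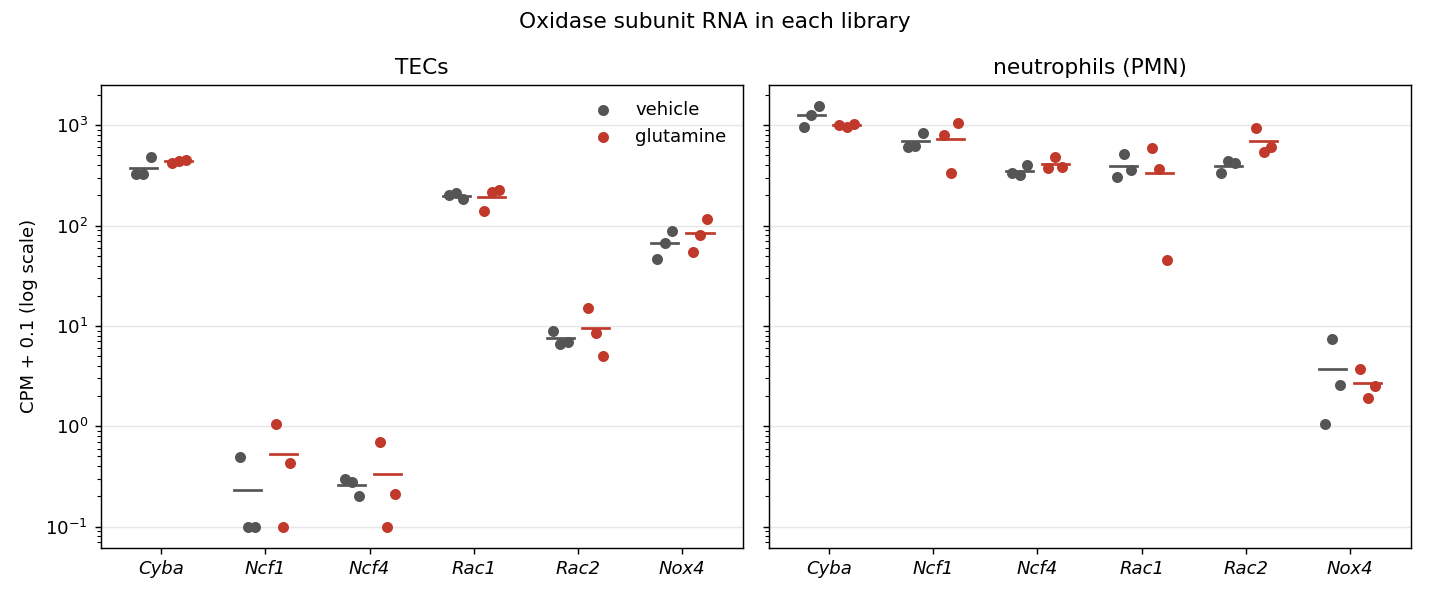
CPM plus 0.1 on a log scale for the 6 measured subunits in TECs (left) and PMN (right), with 1 point per library, vehicle in grey and glutamine in red, and a line at each group's mean. Ncf1 and Ncf4 sit near the bottom in TECs and at 316 to 1047 CPM in PMN, Nox4 shows the reverse, and 1 glutamine library of PMN is low in Rac1 at 45.8 CPM.

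Leukocyte marker genes give the scale for these TEC levels. The 6 pan-leukocyte genes were in TECs at 0.117% to 0.528% of their PMN level, and the 11 neutrophil genes had a median of 0.212%, with the highest at 8.51%. Ncf1 and Ncf4 were below all 6 pan-leukocyte genes on this scale. Rac2, at 1.54%, was above all 6. It was within the range of the 12 macrophage and dendritic cell genes, whose median was 0.442% and highest, Csf1r, 4.18%. Of the 4 monocyte genes, whose median was 0.653%, only Fn1, at 4.52%, was above Rac2. How much of the Rac2 signal in TECs came from leukocytes was not tested.

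**Figure D2:**
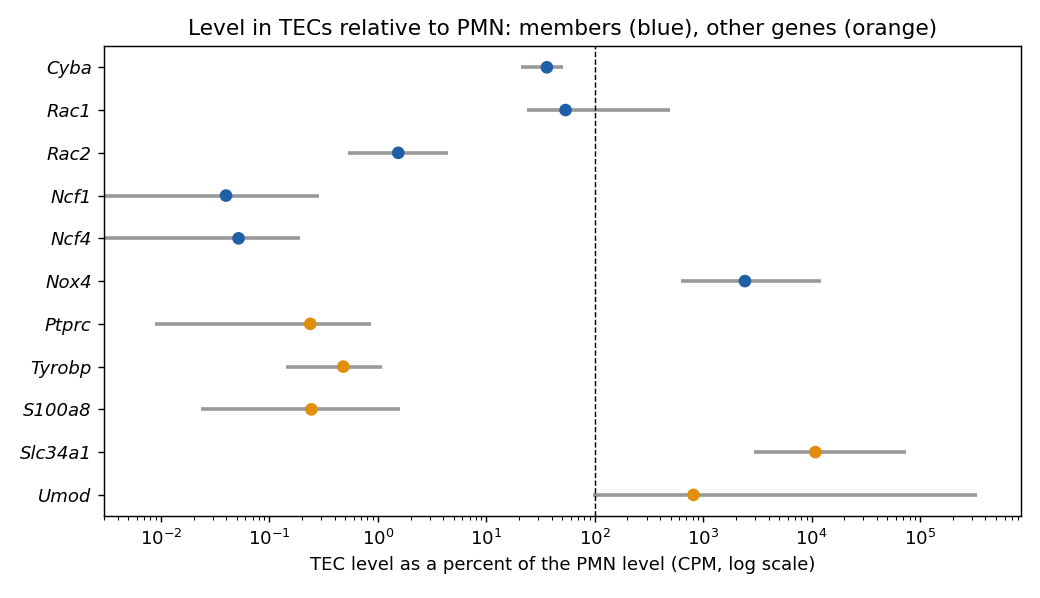
Mean TEC level as a percent of the mean PMN level on a log scale, members in blue and other genes in orange; each grey line runs from the lowest TEC over the highest PMN library to the highest TEC over the lowest PMN library, and reaches the left edge where a TEC library was at 0. Among genes with a mean TEC level above 0, Ncf1 (0.0398%) and Ncf4 (0.0519%) lie furthest to the left. Cyba (36.2%) and Rac1 (53.7%) lie near the dashed line of equal level, and Nox4 to its right. The macrophage and dendritic cell gene Itgax was at 0 in every TEC library and has no value on a log scale.

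To compare the subunits with one another, CPM was divided by the length of each gene's longest transcript in kilobases. In TECs the order of levels per kilobase was Cyba, Rac1, Nox4, Rac2, Ncf4 and Ncf1. Cyba had 435 to 656 CPM per kilobase with a median of 576, while the means were 47.2 ± 7.26 for Rac1, 19.3 ± 6.49 for Nox4 and 2.77 ± 1.14 for Rac2 (SD, n = 6 libraries). The ranges of these 4 genes did not overlap with one another, and Ncf4 and Ncf1, both below, did overlap. In PMN the order was Cyba, Ncf4, Ncf1, Rac2, Rac1 and Nox4. Cyba led with 1515 ± 320 CPM per kilobase, followed by Ncf4 with 261 ± 39.8, Ncf1 with 246 ± 84.6, Rac2 with 180 ± 70.0 and Rac1 with 87.8 ± 45.9, and Nox4 was last with 0.794 ± 0.578. From Ncf4 to Rac1 each gene's range overlapped with that of the next, and with the union of exons as the length Ncf1 stood before Ncf4. Within each of the 6 PMN libraries Rac2 was nevertheless above Rac1.

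The ratio of Rac2 to Rac1 per kilobase within a library separated the cell types. In TECs it was 0.0600, 0.0429 and 0.0510 in vehicle replicates 3, 4 and 5 and 0.145, 0.0545 and 0.0306 in glutamine replicates 1, 2 and 3, so that Rac1 was the main form in each of the 6. In PMN it was 1.48, 1.15 and 1.60 with vehicle and 2.14, 2.04 and 18.2 with glutamine, so that per kilobase Rac2 was the main form in each of the 6. Without division by length Rac2 was below Rac1 in PMN vehicle replicate 2, with 436 CPM beside 519 CPM, and the mean log2 ratio over the 6 PMN libraries was 0.84 in place of 1.29. Per kilobase but without glutamine replicate 3, the library at 18.2, that mean was 0.72. The ratio of Cyba to Nox4, chosen after the values were seen because Cybb had no row, had a median of 29.0 in TECs, with a range of 20.5 to 39.9, and a median of 2482 in PMN, with a range of 894 to 5062. These sizes depend on the lengths used. The mean log2 ratio was 4.88 in TECs and 11.1 in PMN, 5.51 and 11.8 with the union of exons, and 2.48 and 8.74 with no division by length. Per kilobase of longest transcript, Cyba RNA exceeded Nox4 RNA in every library of both cell types.

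The second question was whether glutamine changed the subunits. No member passed the test in either cell type. With edgeR's quasi-likelihood test and Benjamini-Hochberg adjusted p-values below 0.05, 0 of 4 tested members were called in TECs, where the background share of calls among 14734 genes was 0%, and 0 of 6 in PMN, where it was also 0% among 10130 genes. At an unadjusted p-value below 0.05, 0 of the 4 members stood in TECs against 12.7% of all tested genes, and 1 of the 6, Rac2, in PMN against 3.42%. DESeq2, which called 2.09% of all tested genes in TECs and 2.34% in PMN, and limma-voom, which called 0% in both, also called 0 members. Ncf1 and Ncf4 did not pass the filter on low counts in TECs and were not tested there.

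In TECs Cyba had 323, 324 and 488 CPM in vehicle replicates 3, 4 and 5 and 416, 441 and 454 CPM in glutamine replicates 1, 2 and 3. All 3 glutamine libraries lay between the second and the highest vehicle library, and the log2 fold change was 0.21 (SE 0.21, 95% interval -0.26 to 0.68, edgeR adjusted p = 0.709). It was 0.10 without vehicle replicate 3 and 0.43 without vehicle replicate 5. Nox4 had 45.9, 67.1 and 88.2 CPM with vehicle and 54.9, 80.7 and 117 CPM with glutamine. The groups overlapped, with the lowest library among vehicle and the highest among glutamine, and the log2 fold change was 0.33 (SE 0.31, 95% interval -0.36 to 1.01, edgeR adjusted p = 0.685). It was 0.0099 without glutamine replicate 3, 0.11 without vehicle replicate 3 and 0.57 without vehicle replicate 5. The interval allows anything from a 0.780-fold to a 2.02-fold level of Nox4 with glutamine.

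Rac1 in TECs had 202, 210.3 and 186 CPM with vehicle and 141, 215 and 224 CPM with glutamine, where only replicate 1 was low. Its log2 fold change was -0.04 (95% interval -0.53 to 0.44, edgeR adjusted p = 0.951), and it became 0.14 without glutamine replicate 1. Rac2 had 8.79, 6.54 and 6.86 CPM with vehicle and 14.9, 8.44 and 4.96 CPM with glutamine, with a log2 fold change of 0.35 (95% interval -0.61 to 1.31, edgeR adjusted p = 0.765). The glutamine library highest in Rac2 was the one lowest in Rac1, and without it the Rac2 change was -0.16. All 5 tested pan-leukocyte genes were also higher with glutamine in TECs, with a median log2 fold change of 1.13, while 7454 of all 14734 tested genes were higher and in edgeR 0 of the 5 passed the adjusted threshold and 1, Laptm5, had an unadjusted p-value below 0.05. Among them Ptprc had 0.102 to 1.52 CPM with vehicle and 1.81 to 2.74 CPM with glutamine, and the summed level of all 6 genes overlapped, at 10.1 to 32.4 CPM and 19.1 to 60.1 CPM. That sum was highest in glutamine replicate 2, at 60.1 CPM, and was 34.0 CPM in glutamine replicate 1, the library highest in Rac2. Itgb2, the untested gene of the list, averaged 1.08 CPM with vehicle and 0.882 CPM with glutamine. The part of leukocytes in the Rac2 values was not tested. Ncf1 had 4 counts over the 3 vehicle libraries and 11 over the 3 glutamine libraries, of which 8 were in replicate 1. Ncf4 had 5 and 6 counts, of which 5 of the 6 with glutamine were in replicate 1. At these counts a difference in either gene would be imprecise.

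**Figure D3:**
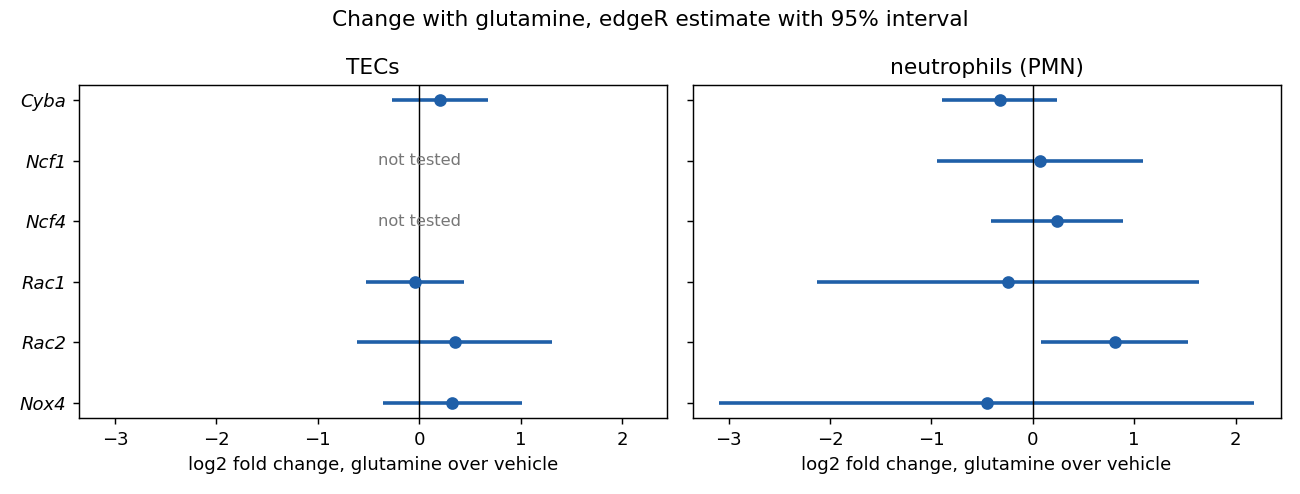
edgeR log2 fold change of glutamine over vehicle (point) with its 95% interval (line) for each subunit in TECs (left) and PMN (right); 2 subunits were not tested in TECs. The intervals include 0 in all cases but Rac2 in PMN, whose interval runs from 0.08 to 1.53.

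In PMN, Rac2 was the member whose groups stood apart. It had 333, 436 and 421 CPM in the vehicle libraries and 932, 541 and 608 CPM in the glutamine libraries. The lowest glutamine library was above the highest vehicle library, as groups were apart in 1 direction or the other for 10.5% of all tested PMN genes. The log2 fold change was 0.81 (SE 0.31, 95% interval 0.08 to 1.53, edgeR unadjusted p = 0.0339), a 1.75-fold level, and the adjusted p was 1. Ptprc, the pan-leukocyte gene for CD45, was apart in the same direction, with 317 to 569 CPM with vehicle and 754 to 1150 CPM with glutamine. Of the other 5 pan-leukocyte genes, Laptm5 was also apart and higher with glutamine, and Coro1a, Itgb2, Cd53 and Tyrobp overlapped, with log2 fold changes from -0.12 to 0.48. The summed level of the 6 genes was 6618 to 8750 CPM with vehicle and 8984 to 10646 CPM with glutamine, also without overlap. All 4 monocyte genes were lower with glutamine, with a median log2 fold change of -0.48. Of the 12 macrophage and dendritic cell genes 10 were higher and 2 lower, with a median of 0.38. Of the 9 tested neutrophil genes 5 were higher and 4 lower, with a median of 0.14. In edgeR 0 genes of these lists passed the adjusted threshold, and 5066 of all 10130 tested genes were higher. The part of any of these lists in the Rac2 difference was not tested. The Rac2 estimate stayed between 0.51 and 0.92 in fits that each left out 1 of the 6 libraries.

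Rac1 in PMN had 308, 519 and 360 CPM with vehicle and 595, 363 and 45.8 CPM with glutamine. Glutamine replicate 3 had less than any other PMN library, and this library set the direction, with a log2 fold change of -0.24 (95% interval -2.13 to 1.64, edgeR adjusted p = 1) that became 0.27 without it. Daglb, the gene that overlaps the end of Rac1, was highest in the same library. There it had 1248 counts, or 62.6 CPM, beside 913 counts, or 45.8 CPM, for Rac1. In the other 5 libraries Daglb had 0 to 562 counts, or 0 to 29.6 CPM. In glutamine replicate 3 both genes were below the Rac1 level of every other PMN library, the lowest of which was 308 CPM. How far reads of the overlap were assigned to Daglb in place of Rac1 was not tested. The same library had an ordinary Rac2 value, and its Rac2 to Rac1 ratio of 18.2 followed from the low Rac1. Of the PMN libraries it also had the lowest sum of the neutrophil genes, 22082 CPM. Its sum of the macrophage and dendritic cell genes, 26866 CPM, was the highest. The part of this cell make-up in the Rac1 value was not tested.

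**Figure D4:**
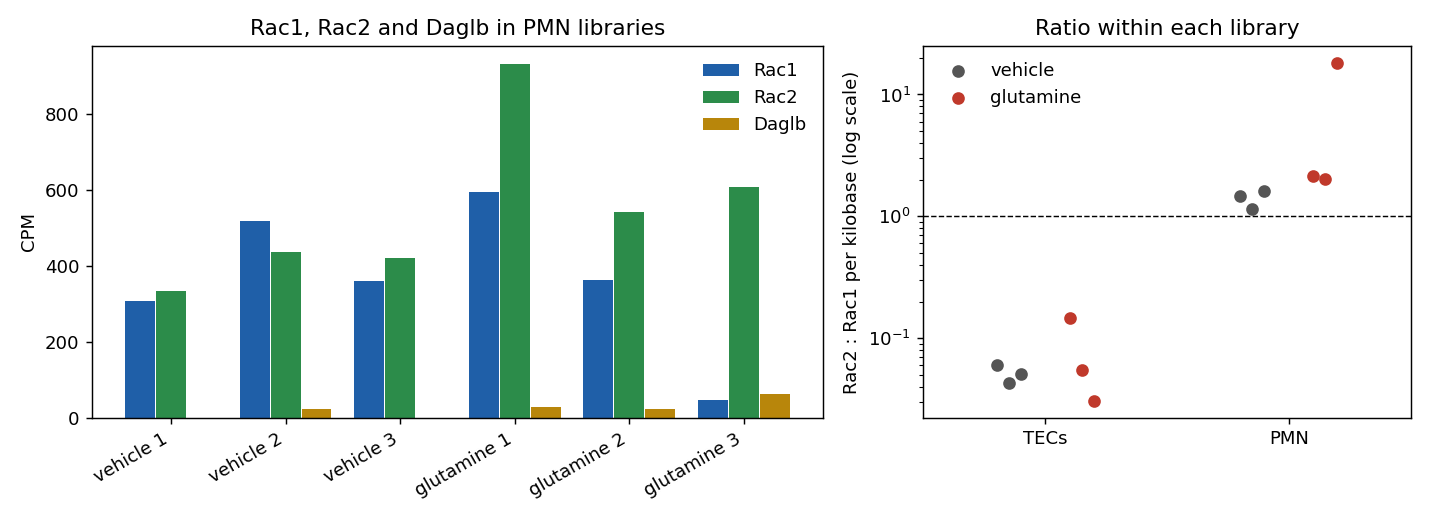
Left, CPM of Rac1, Rac2 and the overlapping gene Daglb in each PMN library; right, the ratio of Rac2 to Rac1 per kilobase in each library on a log scale, vehicle in grey and glutamine in red, with a dashed line at equal level. All TEC ratios are below the line and all PMN ratios above it, and the highest, 18.2, is the glutamine library with 45.8 CPM of Rac1.

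The other subunits in PMN overlapped between the groups. Cyba had 950.3, 1257 and 1556 CPM with vehicle and 999, 961 and 1037 CPM with glutamine, with a log2 fold change of -0.33 (95% interval -0.89 to 0.24, edgeR adjusted p = 1) that was -0.15 without vehicle replicate 3 and -0.52 without vehicle replicate 1. The spread was wider with vehicle, and only the lowest vehicle library fell below the glutamine libraries. Ncf1 had 602, 626 and 842 CPM with vehicle and 796, 335 and 1047 CPM with glutamine, so that the glutamine group held both the lowest and the highest library. Its log2 fold change was 0.07 (95% interval -0.94 to 1.09, edgeR adjusted p = 1), and its direction turned with limma-voom and without any of 3 libraries, with -0.30 without glutamine replicate 3 and 0.37 without glutamine replicate 2. Ncf4 had 336, 316 and 399 CPM with vehicle and 372, 483 and 384 CPM with glutamine, with a log2 fold change of 0.24 (95% interval -0.42 to 0.89, edgeR adjusted p = 1) that was 0.060 without glutamine replicate 2. Nox4, at 0.964, 7.39 and 2.46 CPM with vehicle and 3.61, 1.83 and 2.42 CPM with glutamine, had an interval from -3.09 to 2.18 on the log2 scale. The 2 columns given for each PMN library differed by up to 44.7% of their mean for Nox4, and by at most 1.22% for the other members.

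Partners of the oxidase, 20 genes that prime, load or feed the complex, were examined beside the members. In TECs 17 of the 20 were tested, 8 higher and 9 lower with glutamine, and 0 passed the adjusted threshold. Their median log2 fold change was -0.03, against 0.01 over all tested genes. An unadjusted p-value below 0.05 was found for 2 of the 17, Pak1, which was higher, and Rap1a, which was lower, and this share is near the 12.7% of all tested TEC genes. In PMN 17 were tested, 10 higher and 7 lower, 0 passed the adjusted threshold, and the median was 0.10 against 0.00 over all tested genes. Only Rap1a, which was lower, had an unadjusted p-value below 0.05 there, 1 of the 17 beside 3.42% of all tested PMN genes. DESeq2 and limma-voom also called 0 partners, beside the shares of all genes given above, 2.09% in TECs and 2.34% in PMN with DESeq2 and 0% in both with limma-voom.

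Cybc1, a chaperone needed for the membrane pair, had 6.52 to 11.5 CPM with vehicle and 3.62 to 10.5 CPM with glutamine in TECs and 42.3 to 173 CPM and 56.0 to 222 CPM in PMN, and overlapped in both. Rap1a, a small GTPase found with the membrane pair, had 38.5 to 40.0 CPM with vehicle and 24.9 to 27.4 CPM with glutamine in TECs (log2 fold change -0.56, edgeR unadjusted p = 0.0222, adjusted p = 0.316). In PMN it had 130 to 170.4 CPM and 27.8 to 84.0 CPM (log2 fold change -1.58, edgeR unadjusted p = 0.0334, adjusted p = 1). Pak1, a kinase that binds GTP-bound RAC, had 17.6 to 26.2 CPM and 30.7 to 40.6 CPM in TECs (log2 fold change 0.68, edgeR unadjusted p = 0.0192, adjusted p = 0.301). In PMN Pak1 had 48.0 to 107 CPM with vehicle and 0 to 32.1 CPM with glutamine (log2 fold change -2.24, 95% interval -6.74 to 2.26, edgeR adjusted p = 1). The groups of Rap1a and of Pak1 did not overlap in TECs or in PMN, as was so for 18.8% of all tested TEC genes and 10.5% of all tested PMN genes. Of the other tested partners, Prex1 and Prkcd (higher with glutamine) and Arhgdia (lower) were also apart in TECs. In PMN Arhgdia and Sh3pxd2b (higher) and Pak2 (lower) were also apart. Groups were apart in opposite directions in TECs and PMN, as for Pak1, in 0.704% of the 8950 genes tested in both. The difference between the cell types in the response of any of these genes was not tested.

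**Figure D5:**
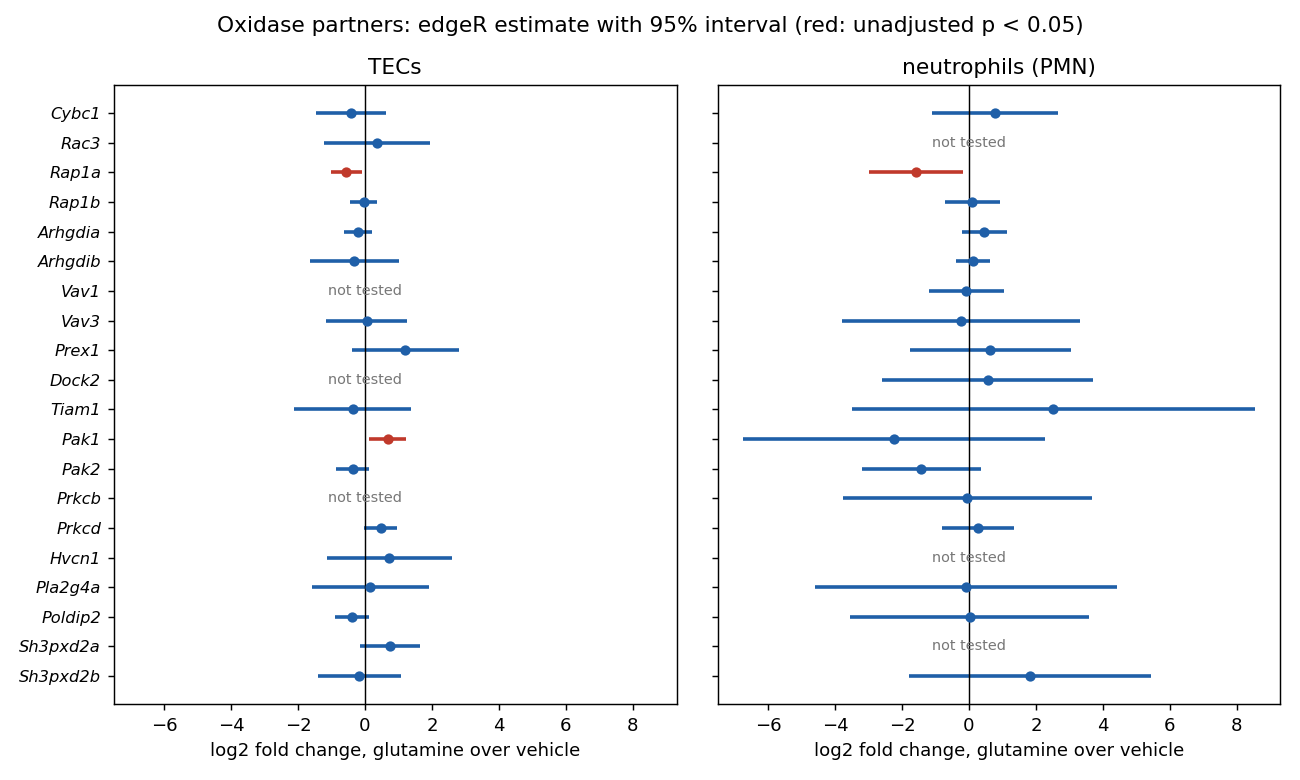
edgeR log2 fold change of glutamine over vehicle with its 95% interval for oxidase partners in TECs (left) and PMN (right), in red where the unadjusted p-value was below 0.05. Of the 20 partners 17 were tested in TECs and 17 in PMN. Pak1 lies to the right of 0 and Rap1a to the left in TECs, and Rap1a alone is red in PMN; no gene passed the adjusted threshold.

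Of 8 genes of other NADPH oxidases, 7 had a row. In PMN all 7 were at 0 in every library. In TECs 0 of the 7 passed the filter, and their sum was 0 to 0.691 CPM with vehicle and 1.05 to 3.59 CPM with glutamine. Noxo1, the organizer of the NOX1 oxidase and the one with the highest mean over all 6 TEC libraries, had 0 to 0.204 CPM with vehicle and 0.557 to 1.78 CPM with glutamine. A count of 3 in a single TEC library corresponds to 0.269 to 0.603 CPM, so these values rest on few counts. Groups were also apart in 18.8% of all tested TEC genes, and Noxo1 was not tested. Nox4 was thus the only catalytic subunit among the measured oxidase genes that passed the filter in TECs. Among the 5 TEC genes whose log2 CPM followed Nox4 most closely over the 6 libraries were Gmeb2 (r = 0.989), Errfi1 (r = 0.989), Ube2j1 (r = 0.987) and 2700062C07Rik (r = 0.986). The comparison took in 8416 genes, over libraries that also share their depth and scaling, and the values are a description only.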

How the data were processed

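For TECs and for PMN the authors deposited a table of estimated counts by gene symbol, with no normalization. The submitters' processing notes name FastQC, MultiQC, Trim Galore 0.6.4, Salmon 1.0.0, DESeq2 and mm10, and the labels state poly(A)-based single-end reads of 50 bases. The annotation is not given in the sources used here. Of the PMN cells 3.20% carried extra points and 0.391% had become dates, which were decoded to counts. Extra points occurred in 41 of the 72 cells of the members and dates in 0. The 2 PMN columns per library, whose meaning is not given in the sources used here (r of 0.995 to 0.996 on a log2 scale, against 0.771 to 0.824 between libraries), were averaged. Counts were rounded and tested with edgeR 4.0.16 in R 4.3.3 (TMM, default filter, quasi-likelihood F test, Benjamini-Hochberg) in each table separately. DESeq2 1.42.0, limma 3.58.1 (voom), RLE scaling, other filters, single columns and fits without each library were alternatives. The edgeR test was run on simulated counts only to check the size and sign of its fold changes. Within-library ratios added 0.5 count. Lengths and positions came from GENCODE M21. The members and gene lists were chosen with earlier results of these data known. Named were all members, Cybc1, partners with an unadjusted p below 0.05, marker genes, and the 5 genes most like Nox4 with a mean of at least 10 CPM. Arhgdia, Prex1, Prkcd, Pak2, Sh3pxd2b, Noxo1 and Daglb were named after their values were seen. No protein sequences were used here. The numbering of replicates does not pair libraries, and the PMN replicate numbers were assigned here and are not in the labels. Of the partners, the genes most like Nox4 and the sequences shown, 1 each is not reported here.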

Additional observations from a re-analysis of the deposited data

Results flagged for a closer look

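Pak1 stood apart between the groups in opposite directions in the 2 cell types. In TECs all glutamine libraries were above all vehicle libraries (log2 fold change 0.68, 95% interval 0.13 to 1.23). In PMN all were below (log2 fold change -2.24, 95% interval -6.74 to 2.26), with the lowest glutamine library at 0 CPM. Arhgdia encodes an inhibitor that holds RAC proteins in the cytosol and was picked after its values were seen. Its groups were apart in the reverse directions. In TECs it had 454 to 489 CPM with vehicle and 349 to 442 CPM with glutamine (log2 fold change -0.20, 95% interval -0.62 to 0.21). In PMN it had 347 to 603 CPM and 631 to 724 CPM (log2 fold change 0.46, 95% interval -0.22 to 1.14). Both Arhgdia intervals and the Pak1 interval in PMN include 0. These 2 genes, Pak1 and Arhgdia, were found among the 18 members and partners tested in both cell types, beside 0.704% of all 8950 genes tested in both. The difference between the cell types was not tested for either gene, and neither passed the adjusted threshold in TECs or in PMN.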

How the results depend on the processing

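In TECs 0 genes were called, but 308 with DESeq2 and 425 without the filter on low counts, and 0 to 36 without 1 library, with 4 without vehicle replicate 5 and 36 without glutamine replicate 2. In PMN 0 were called, but 237 with DESeq2. The cause was not tested. No setting called a member, and the smallest adjusted p-value of any member over all alternatives was 0.240. Of 126 fold changes of members under alternatives, 117 kept their direction and 9 reversed. Rac1 in TECs was 0.0055 on the log2 scale without predicted, Rik and receptor genes and -0.17 to 0.14 without 1 library, and Rac2 in TECs -0.16 to 0.67. Ncf1 in PMN was -0.085 with limma-voom and -0.30 to 0.37 without 1 library, Rac1 in PMN -0.96 to 0.27 and Nox4 in PMN -0.93 to 0.61. Without the filter, Ncf1 and Ncf4 in TECs had log2 fold changes of 1.62 (SE 2.27, edgeR adjusted p = 0.736) and 0.54 (SE 2.39, edgeR adjusted p = 0.939). The mean log2 ratio of Cyba to Nox4, 4.88 in TECs and 11.1 in PMN, was 5.51 in TECs with the union of exons, and 2.48 and 8.74 with no division by length. These alternatives for the ratio were chosen after seeing the data. The Cybb to Nox4 ratio and the genes most like Cybb were not run, as Cybb had no row. No paired analysis was possible because a single number, 3, occurs in both groups of TECs and the PMN labels carry no replicate numbers. With 3 libraries per group the wide intervals, above all those of Rac1, Nox4 and Ncf1 in PMN, limit what could be seen, and the low counts of Ncf1 and Ncf4 leave a difference between the treatments in TECs imprecise.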
